A study of Olea europaea with 24 samples.

Results

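The rows described here are 150 olive gene models whose group median was highest in the dried trees on 6 June. They were chosen from the authors' scaled values among 31784 rows that carry gene model IDs. For each group the median of log2(scaled value + 1) was taken over its 3 trees. A row had to reach at least 5 in dried trees on 6 June and lie at least 1.5 above the highest of the other 7 group medians. In all, 393 rows met both thresholds, and the 150 with the largest gap to the second highest group were kept. The choice thus rests on the dried 6 June libraries, so the height of these rows on that day is a description and is not tested.

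The study followed branches of 6 olive trees (Olea europaea) on 7 May, 23 May, 6 June and 29 July, which gave 24 RNA libraries in 8 groups of 3 trees. Watered trees (3, 9 and 11) received 1.2 litres of water per day. Dried trees (4, 8 and 12) received 1 litre per week for 2 weeks and then none for 2 weeks, but no label says on which of the sampling days this had begun or ended. Heat, drought and recovery are the conditions in the title of the series, and the samplings after 7 May came 16, 30 and 83 days later. No cultivar, age or genotype is given, and each library is 1 branch sample of 1 tree, so the spread given below is between trees.

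When soil dries, woody plants close their stomata, largely through the hormone abscisic acid. They are known to raise transcripts for protective proteins, for enzymes that detoxify reactive oxygen and for the making of sugars and other solutes that hold water. Photosynthesis then slows, and branches can draw on stored starch and on sucrose, which invertases split into glucose and fructose. The gene model IDs are not paired with gene names in the files, and 0 of the 50566 IDs matched the gene table at hand, so no function, position or sequence is given for any of the 150 rows. The only named rows in the tables are carbohydrate genes picked by the authors, and these are compared with the 150 rows further on.

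The libraries held 6675360 to 14122826 counts each. The authors' scaling made 1 read worth between 0.33 and 5.46 scaled units, with the highest worth in dried tree 4 on 6 June, so a single read there reached 2.69 on the log2 scale. Among the 24 libraries, 2 of the first day stood apart from their groups in these rows. The library labelled watered tree 9 on 7 May had a median over the 150 rows of 10.43, against 1.17 in tree 3 and 1.74 in tree 11 of the same group. The library labelled dried tree 12 on 7 May had a median of 5.05, against 1.10 in tree 4 and 1.29 in tree 8. The data therefore go against calling these rows raised only in late drying: the high levels were present in dried trees on 6 June and also in 1 library, and to a lesser degree in a second, of the first sampling day. Results that rest on these libraries are given with and without them.

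**Figure D1:**
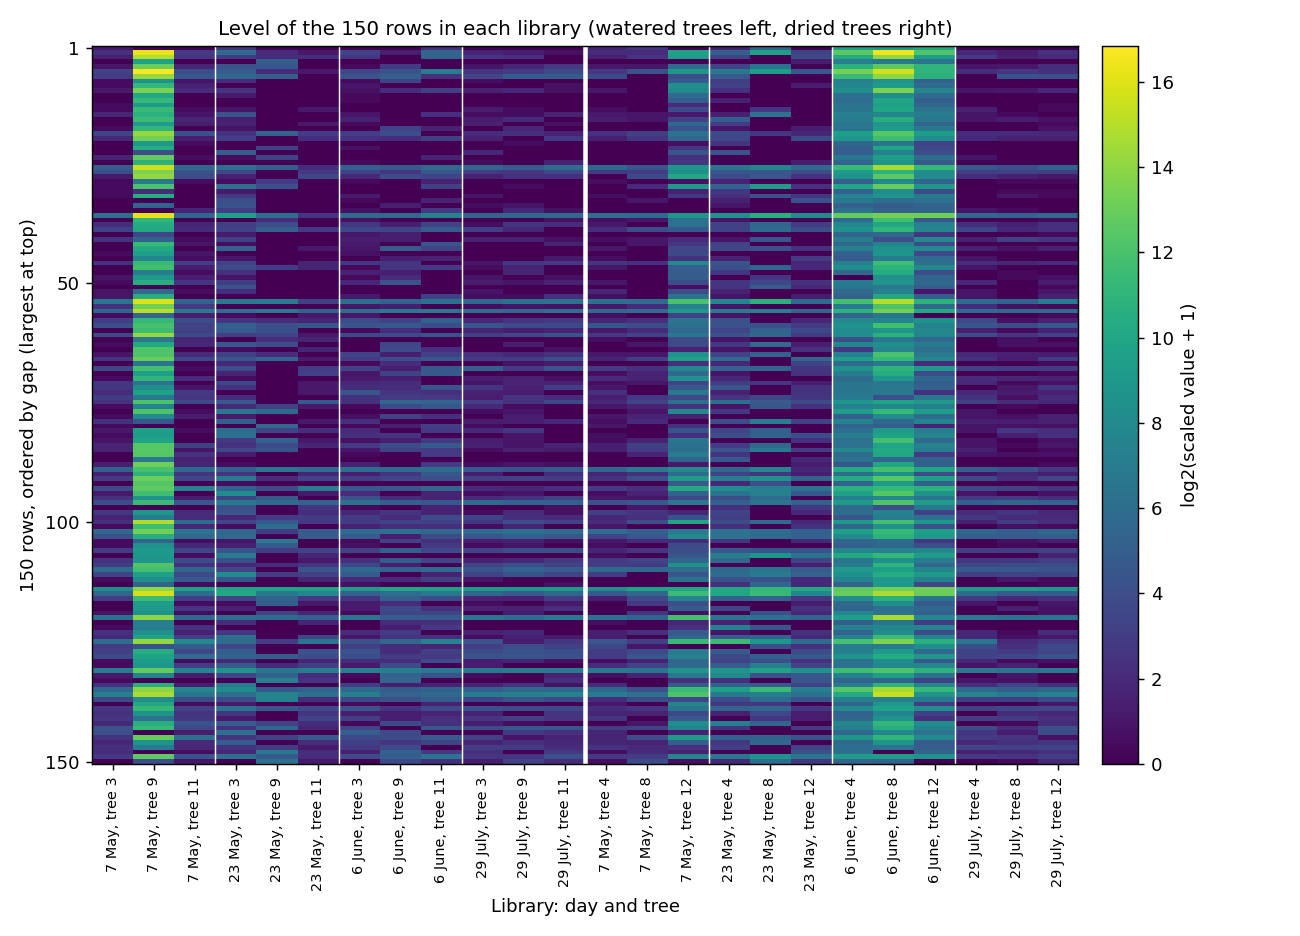
Level of each of the 150 rows (vertical axis, largest gap at the top) in each of the 24 libraries (horizontal axis, watered trees left and dried trees right), coloured by log2(scaled value + 1). The 3 dried trees of 6 June are bright in most rows, and so is watered tree 9 on 7 May, while dried tree 12 on 7 May is intermediate.

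On 6 June the median level of the 150 rows was 7.13 in dried tree 4, 9.26 in dried tree 8 and 6.67 in dried tree 12. In watered trees of that day it was 1.58 in tree 3, 2.14 in tree 9 and 2.32 in tree 11. The groups of that day did not overlap in this median. Tree 8 was the highest of the 3 dried trees in 130 rows, tree 4 in 13 and tree 12 in 7. Tree 12 was the lowest in 104 rows, tree 4 in 34 and tree 8 in 12. This order holds for the scaled values, where 1 read was worth 5.46 units in tree 4, 1.62 in tree 8 and 1.01 in tree 12. By reads tree 4 was the lowest, with a median of 25.5 per row against 99.5 in tree 12, from libraries of 11929491 and 12025808 counts.

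On 6 June the rows also took a larger part of the library in dried than in watered trees. They held 0.147% of all counts in dried tree 4, 4.07% in tree 8 and 0.6% in tree 12. In watered trees 3, 9 and 11 of that day they held 0.0626%, 0.0226% and 0.0161%. These shares on 23 May were 0.146%, 0.0487% and 0.029% in dried trees 4, 8 and 12. In watered trees 3, 9 and 11 of 23 May they were 0.173%, 0.0117% and 0.0245%. The share of dried tree 4 was thus nearly the same on both days, while its scaled median was 3.27 and then 7.13. In its libraries 1 read was worth 0.964 scaled units on 23 May and 5.46 on 6 June. Behind the levels of 6 June lay a median of 25.5 reads per row in dried tree 4, 379 in tree 8 and 99.5 in tree 12. At least 10 reads were present in each of the 3 dried trees for 106 of the 150 rows, and 4 rows had no read in 1 of them. In bulk branch samples a larger number of cells that express a gene and more RNA per cell cannot be told apart.

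**Figure D2:**
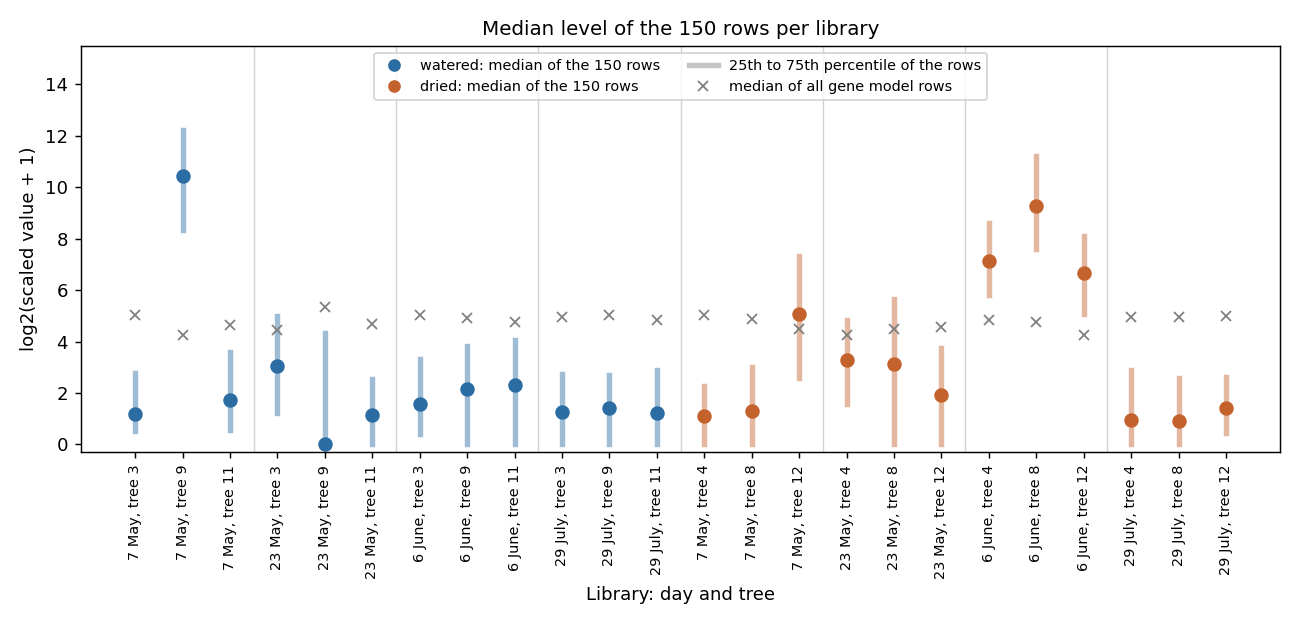
Median level of the 150 rows in each library (points; horizontal axis, day and tree) as log2(scaled value + 1), with bars from the 25th to the 75th percentile of the rows and crosses at the median of all gene model rows. The dried trees of 6 June lie at 6.67 to 9.26, and watered tree 9 on 7 May lies above all of them at 10.43.

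Averaged over trees, the median level was 7.69 ± 1.38 (SD, n = 3) in dried trees on 6 June. It was 2.48 ± 2.23 (SD, n = 3) in dried trees on 7 May, 2.78 ± 0.73 (SD, n = 3) on 23 May and 1.09 ± 0.28 (SD, n = 3) on 29 July. In watered trees it was 4.45 ± 5.19 (SD, n = 3) on 7 May, 1.39 ± 1.54 (SD, n = 3) on 23 May, 2.01 ± 0.39 (SD, n = 3) on 6 June and 1.30 ± 0.09 (SD, n = 3) on 29 July. The 7 May groups had the widest spread, since each held 1 of the libraries that stood apart. In the order of these means every group overlapped with its neighbours, and watered 7 May overlapped with dried 6 June through tree 9.

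Per row, the level in dried trees on 6 June ran from 5.06 to 13.34, with a median of 7.17 over the rows. These levels are not per transcript length, so they do not rank the gene models against each other. The gap to the second highest group ran from 2.64 to 7.92 with a median of 3.69. The last rows taken had gaps of 2.66 and 2.64, and the first rows left out had gaps of 2.64 and 2.63, so the limit of 150 cuts through a continuous series. The same thresholds applied to each other group found 68 rows for dried trees on 7 May, 63 for dried trees on 23 May, 2 for dried trees on 29 July and 6 to 21 for the watered groups.

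The row with the largest gap, Oeu018773.1, was also one of the 9 that had no read in watered tree 9 on 7 May. Its level on 6 June was 9.63 in dried tree 4, 9.26 in tree 8 and 10.26 in tree 12, from 145, 379 and 1214 reads. In the 21 other libraries it had between 0 and 11 reads, and the highest level was 5.47 in dried tree 8 on 23 May, which came from 8 reads. The 3 dried trees of 6 June did not overlap with any other library in this row.

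The second row, Oeu013871.1, had 1112 reads in dried tree 4, 56460 in tree 8 and 4631 in tree 12 on 6 June, or levels of 12.57, 16.48 and 12.19. Watered tree 9 on 7 May held 22188 reads of it, a level of 16.29, while watered trees 3 and 11 of that day held 9 and 13 reads. Dried tree 12 on 7 May held 1318 reads, a level of 9.69, against 6 in tree 4 and 3 in tree 8. On 23 May the dried trees 4, 8 and 12 held 36, 140 and 6 reads, and watered tree 3 held 132. On 29 July no library held more than 12 reads. The row was thus high in all 3 dried trees of 6 June, in watered tree 9 on 7 May and, less so, in dried tree 12 on 7 May.

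Oeu031007.1, the row with the highest level in any single library outside dried 6 June, had its most reads in the same 5 libraries. It reached 16.84 in watered tree 9 on 7 May from 32540 reads, against 22 and 32 reads in trees 3 and 11. On 6 June the dried trees 4, 8 and 12 held 1893, 32018 and 1936 reads, and watered trees 3, 9 and 11 held 31, 11 and 67. Dried tree 12 on 7 May held 766 reads, against 10 and 17 in trees 4 and 8.

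Row by row, all 3 dried trees lay above all 3 watered trees of 6 June in 136 of the 150 rows, where 9.31% of all gene model rows do so. All 3 dried trees lay above the dried trees of 23 May in 128 rows (7.17% of all rows), above those of 7 May in 100 rows (12.3%) and above those of 29 July in 144 rows (18.1%). Since the rows were chosen on dried 6 June, nothing is read from these counts against the background. All 3 dried trees lay above all 21 other libraries in 8 rows (0.267% of all rows). This number was 84 (1.67%) when watered tree 9 on 7 May was left aside, and 116 (2.08%) when dried tree 12 on 7 May was left aside as well.

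Of the 21 libraries outside dried 6 June, watered tree 9 on 7 May was the highest in 132 of the 150 rows. Watered tree 9 on 23 May was the highest in 5 rows, dried tree 8 and watered tree 3 of 23 May in 4 each, and dried tree 4 of 23 May in 3. Watered tree 9 of the first day lay at or above the dried 6 June median in 129 rows and above all 3 dried trees in 94. It exceeded the mean of watered trees 3 and 11 by a median of 8.25 on the log2 scale over the 150 rows, while over all gene model rows the median of this difference was -0.48. It lay above both other watered trees in 140 of the 150 rows, against 33.7% of all rows. The rows took 3.38% of its counts, more than in dried trees 4 and 12 on 6 June.

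The levels of the 150 rows in watered tree 9 on 7 May correlated across rows with those in dried tree 8 on 6 June at r = 0.80, with tree 4 at r = 0.57 and with tree 12 at r = 0.56. Across all gene model rows this library was most like dried tree 12 on 6 June (r = 0.77) and dried tree 8 on 6 June (r = 0.77), and its correlation with the trees of its own group was 0.51 and 0.62. The 2 other watered trees of 7 May correlated at 0.90 with each other. These values are over rows within libraries and rows are not independent replicates. The reason for the levels in this library was not tested.

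**Figure D3:**
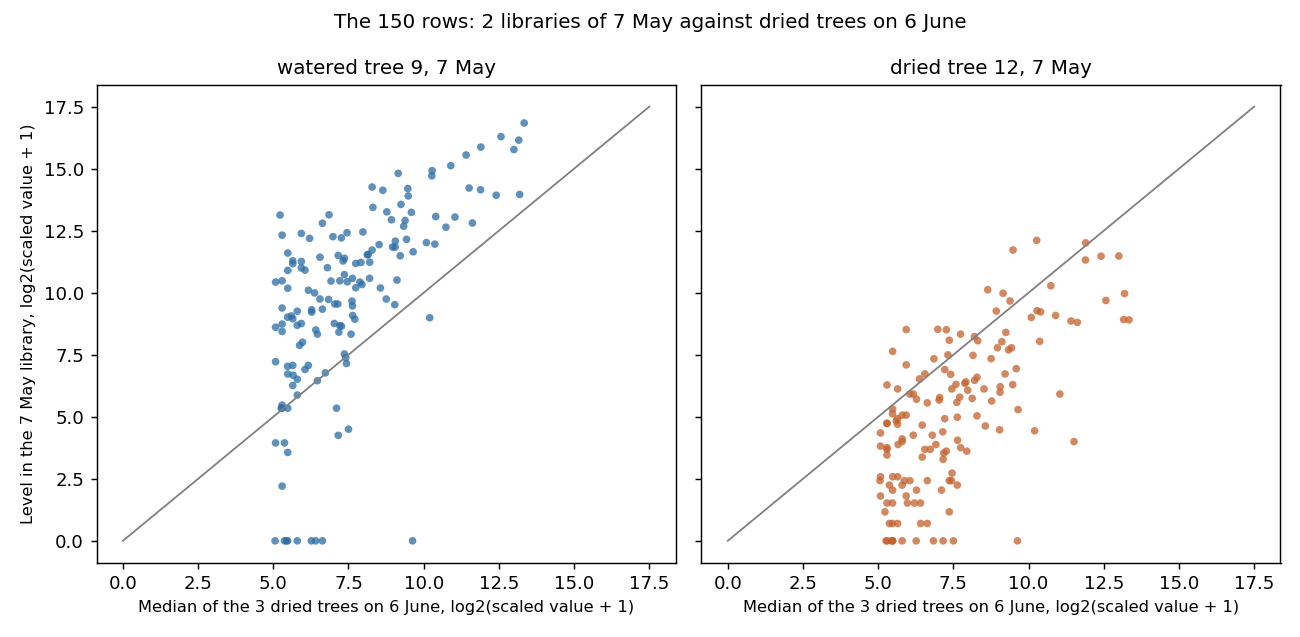
Level of the 150 rows in watered tree 9 (left) and dried tree 12 (right) on 7 May, against the median of the 3 dried trees on 6 June, each as log2(scaled value + 1), with the line of equal levels. In watered tree 9 129 rows lie on or above the line, and in dried tree 12 21 rows do.

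The 21 rows below their dried 6 June median in watered tree 9 on 7 May included 9 with no read there. Their median level in that library was 3.56, against 10.91 in the 129 other rows. In dried tree 12 on 7 May the 21 rows had a median of 1.52, against 5.71. On 6 June they had medians of 6.28, 6.11 and 5.48 in dried trees 4, 8 and 12, and the 129 rows had 7.21, 9.79 and 6.81. The rows low in watered tree 9 on 7 May were thus also lower in dried tree 12 of that day, and on 6 June their median in tree 8 was not above that in tree 4. This split was made after the values were seen and is a description.

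Dried tree 12 on 7 May exceeded the mean of dried trees 4 and 8 by a median of 3.49 over the 150 rows, against -0.25 over all rows. It lay above both other trees of its group in 131 of the 150 rows, where 28.8% of all rows do. In 21 rows it reached the dried 6 June median. Across all gene model rows it was most like watered tree 11 on 7 May (r = 0.91), and it correlated at 0.80 and 0.81 with dried trees 4 and 8 of its own group. The reason for its levels in the 150 rows was not tested.

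On 7 May, dried against watered trees compared the arms on the first sampling day. Of the 150 rows 142 passed the filter on low counts, and edgeR's quasi-likelihood test called 0 of them at an adjusted p under 0.05 (0.0% of the 29107 rows tested, in either direction). The filter was run over all 24 libraries, so rows could pass it through dried 6 June. With the 6 libraries of a day alone, 56 rows passed on 7 May, 44 on 23 May and 40 on 29 July. In these fits 0 were called (0 of all rows). Rows with few reads on a day could hardly be called there, so little can be read from a count of 0 among the 142. At an unadjusted p under 0.05 there were 83 of the 142 lower in dried trees (3.24% of all rows), and 14 were called lower by DESeq2 (0.234% of all rows). The median log2 fold change was -4.04 over these rows and 0.08 over all rows. Without watered tree 9 it was 2.38, and without dried tree 12 as well it was -0.38, with 0 called each time. The direction of this difference thus turned with single libraries. Oeu046793.1 was the only one of the 150 rows whose arms did not overlap on that day, where 1.67% of all rows lay higher and 1.32% lower in dried trees without overlap. It had 0, 0 and 2 reads in dried trees 4, 8 and 12, and 4, 2477 and 5 reads in watered trees 3, 9 and 11, a log2 fold change of -12.24 ± 2.68 (SE) with an adjusted p of 1 by edgeR.

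On 23 May, the samples between the first day and 6 June, the dried trees had intermediate scaled levels in part of the rows, from few reads. The median level of the rows was 3.27 in dried tree 4, 3.12 in tree 8 and 1.94 in tree 12. In watered trees it was 3.04 in tree 3, 0 in tree 9 and 1.13 in tree 11. The arms overlapped, because watered tree 3 lay above dried tree 12. Median reads per row were 9, 1.5 and 2 in dried trees 4, 8 and 12, and 16, 0 and 1 in watered trees 3, 9 and 11. A read was worth 5.41 scaled units in dried tree 8 and 0.452 in watered tree 3, so similar levels there rested on unlike numbers of reads. The group median was at least 1 log2 unit higher in dried trees for 65 of the 150 rows (43.3%, against 16.4% of all rows), at least 1 lower for 12 (8%, against 22.9%) and within 1 for 73.

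For 58 of the 150 rows dried trees on 23 May were the second highest group. Watered trees on 7 May were second for 40 rows, watered trees on 6 June for 20 and watered trees on 23 May for 14. The 40 include 5 rows at 0 in all 7 other group medians, which were tied and counted there by order alone. Compared with the mean of watered trees 3 and 11 on 7 May, 55 rows in dried tree 4, 58 in tree 8 and 25 in tree 12 were at least 2 log2 units higher on 23 May. The same held for 41 rows in watered tree 3, 30 in tree 9 and 3 in tree 11. A single read gave a level of 2.68 in dried tree 8 and 2.12 in watered tree 9 on 23 May, and at most 1.27 in the other trees. In those libraries 1 read could thus pass the step of 2, so these numbers of rows are not comparable between trees. Levels this far above the first day were thus found in both arms on 23 May, in most rows of neither.

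By edgeR 0 of the 142 rows tested were called between the arms on 23 May (0.0% of all rows), with 2 higher and 1 lower at an unadjusted p under 0.05 (2.47% and 8.68% of all rows). DESeq2 called 1 higher and 1 lower (0.186% and 0.921% of all rows). The median log2 fold change was 0.71, against -0.36 over all rows, and 89 of the 142 were positive. It was 2.20 without tree 3 and 0.07 without tree 8. The arms did not overlap in 8 rows, 7 higher in dried trees and 1 lower, where 5.35% and 8.26% of all rows do so.

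Among these, Oeu060598.1 had levels of 5.81, 6.54 and 4.72 in dried trees 4, 8 and 12 on 23 May, and of 3.57, 0 and 4.41 in watered trees 3, 9 and 11. Its log2 fold change was 2.18 ± 1.11 (SE), with an adjusted p of 0.468 by edgeR. On 7 May it was already at 5.81, 5.62 and 5.99 in the dried trees, so its levels on these days overlapped. Oeu064606.1 had levels of 6.68, 8.67 and 6.47 in dried trees and of 6.21, 4.61 and 2.19 in watered trees, a log2 fold change of 2.29 ± 1.60 (SE) with an adjusted p of 0.598 by edgeR. In the opposite direction, Oeu059628.1 had 0, 0 and 1 reads in dried trees and 6, 1 and 4 in watered trees, a log2 fold change of -2.53 ± 3.30 (SE) with an adjusted p of 0.79 by edgeR.

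Within the dried trees, 23 May against 7 May gave 0 of 142 rows called by edgeR, where 0.0515% of all rows were called higher and 0.0928% lower. The median log2 fold change was -0.50, 5 rows were higher and 6 lower before adjustment (p under 0.05; 5.62% and 13.9% of all rows), and 1 was called higher and 4 lower by DESeq2 (2.18% and 6.87% of all rows). Without overlap between the days were 8 rows higher and 4 lower on 23 May, against 9.49% and 16.5% of all rows. Without dried tree 12 on 7 May the median was 2.30 and 0 were called. Without watered tree 9 on 7 May it was -0.52, with 1 row called higher and 2 lower (0.866% and 3.95% of all rows). Without both libraries the median was 2.33 and 12 of 138 rows were called higher, against 1.55% of all rows. Dried tree 12 on 7 May was left out because these same rows were high in it. A higher level on 23 May than on 7 May is thus built into that fit, and nothing is read from the 12 against the background. Oeu048380.1, which did not overlap between the days, had 1, 3 and 0 reads in trees 4, 8 and 12 on 7 May and 14, 27 and 6 on 23 May. Its log2 fold change was 5.41 ± 1.63 (SE), with an adjusted p of 0.0917 by edgeR. Oeu032712.1 had 0, 0 and 1 reads and then 5, 5 and 2, and a log2 fold change of 4.85 ± 1.72 (SE) with an adjusted p of 0.149 by edgeR. Watered tree 3 on 23 May held 73 reads of the first and 40 of the second, more than any dried tree of that day, though its scaled levels of 5.09 and 4.25 were below those of dried tree 8.

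The largest negative values among rows without overlap were those of Oeu059628.1, with 12, 7 and 588 reads in dried trees 4, 8 and 12 on 7 May and 0, 0 and 1 on 23 May, and of Oeu041140.1, with 2, 3 and 257 reads and then 1, 0 and 0. Neither passed the edgeR test, with adjusted p-values of 0.138 and 0.242 and log2 fold changes of -7.74 ± 2.75 and -6.58 ± 3.04 (SE). In both rows most reads of 7 May came from tree 12.

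The difference between the arms in their change from 7 May to 23 May was positive in 129 of 142 rows, with a median of 5.0 on the log2 scale and 0 rows called by edgeR (0.0% of all rows). Before adjustment 50 rows were higher at p under 0.05 (3.98% of all rows), and by DESeq2 11 were called (0.526% of all rows). The median was -2.16 without watered tree 9 on 7 May, and 1.14 without dried tree 12 of that day as well. Without tree 3 10 rows were called higher (1.65% of all rows). The direction of the median thus turned with the libraries of 7 May.

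On 29 July, the last sampling day, the rows were low in all trees. The median level was 0.94, 0.92 and 1.42 in trees 4, 8 and 12 and 1.27, 1.40 and 1.22 in watered trees 3, 9 and 11. Dried and watered group medians lay within 1 log2 unit in 140 of the 150 rows (93.3%, against 94.6% of all rows). By edgeR 0 of 142 rows were called between the arms (0.0% of all rows) and 0 had an unadjusted p under 0.05. Of all rows 0.0515% were higher and 0.0893% lower at that p, so these counts do not set the 142 rows apart. DESeq2 called 4 higher and 3 lower (0.0172% and 0.0378% of all rows). The median log2 fold change was -0.09, and the arms did not overlap in 5 rows higher and 7 lower in the trees that had been dried (3.47% and 4.77% of all rows).

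The rows with the largest such differences rested on a handful of reads. Oeu026092.1 had 2, 2 and 5 reads in trees 4, 8 and 12 and none in the watered trees, and Oeu030969.1 had 1, 2 and 2 against none. Oeu046793.1 had 0, 0 and 1 reads against 1, 2 and 1 in watered trees, and Oeu015770.1 had 0, 5 and 2 against 4, 4 and 6. The adjusted p was 1 by edgeR for each of them.

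Against their own first day, the dried trees on 29 July had a median log2 fold change of -3.30, with 0 of 142 called by edgeR (0.0% of all rows). Before adjustment 50 were lower at p under 0.05 (2.66% of all rows), and 6 were called lower by DESeq2 (0.141%). Without dried tree 12 on 7 May the median was 0.00. Oeu018368.2 had 8, 3 and 7 reads on 7 May and 11, 23 and 25 on 29 July in trees 4, 8 and 12, a log2 fold change of 1.12 ± 1.10 (SE) with an adjusted p of 1 by edgeR. Oeu033519.1 had 1, 1 and 110 reads and then 0, 0 and 1, and Oeu048239.1 had 1, 2 and 86 and then 0, 0 and 1, also with an adjusted p of 1 by edgeR.

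In the watered trees each later day was compared with 7 May. The median log2 fold change of the 142 rows was -5.74 on 23 May, -6.41 on 6 June and -7.94 on 29 July. Without watered tree 9 on 7 May these medians were 1.10, 0.51 and -0.26. By edgeR 0 rows were called on any of these days, where at most 0.0103% of all rows were called in a direction. Before adjustment 109, 121 and 127 rows were lower at p under 0.05 (8.32%, 5.37% and 7.40% of all rows), and by DESeq2 60, 50 and 77 were called lower (3.3%, 1.3% and 2.29% of all rows). Watered trees 3 and 11 had medians of 1.17 and 1.74 on 7 May, within the range of 0 to 3.04 that watered trees had on later days.

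The rows with the largest negative values among those whose days did not overlap give examples. Oeu041140.1 had 10, 2499 and 13 reads in watered trees 3, 9 and 11 on 7 May and none in any of them on 23 May. Oeu040374.1 had 1, 642 and 4 reads and then none. Oeu031160.1 had 1, 767 and 1 reads on 7 May and none on 6 June. Oeu029588.1 had 5, 1970 and 1 reads on 7 May and none on 29 July. None of these rows passed the edgeR test, with adjusted p-values of 0.116, 0.144, 0.318 and 0.173.

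**Figure D4:**
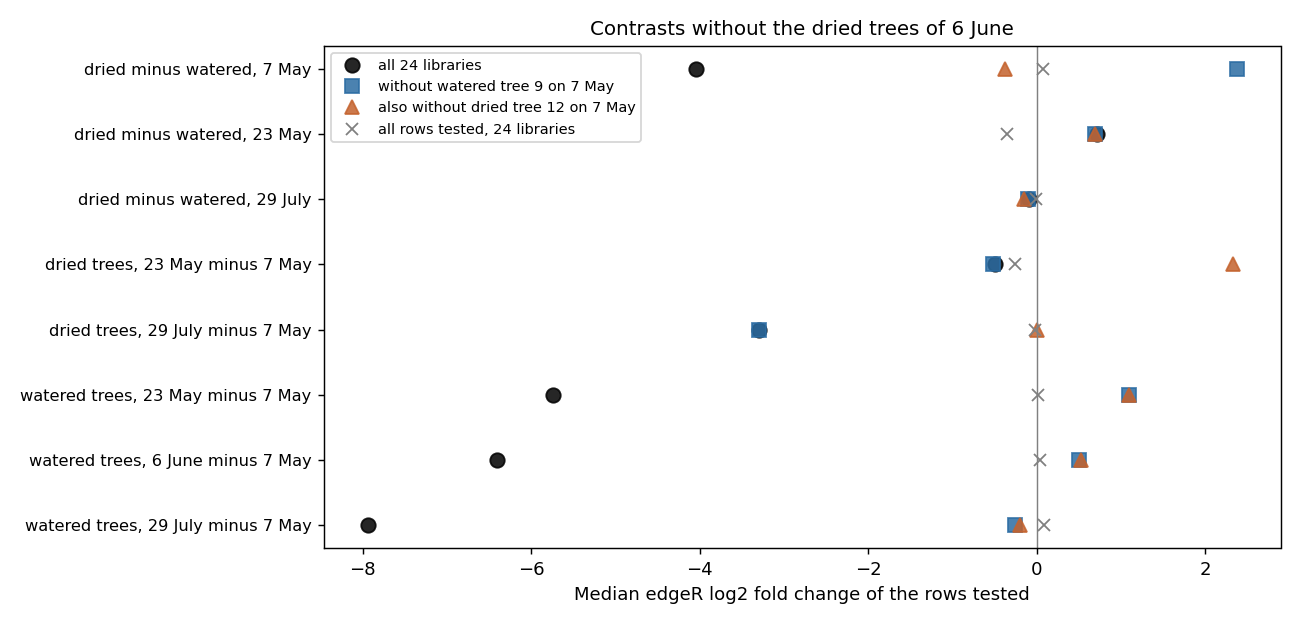
Median edgeR log2 fold change (horizontal axis) of those of the 150 rows that were tested, in 8 comparisons that hold no dried 6 June library (vertical axis). Symbols give fits with all 24 libraries (142 rows), without watered tree 9 on 7 May (144 rows) and without dried tree 12 of that day as well (138 rows). Crosses give the median of all rows tested with 24 libraries. The circles for watered trees lie at -5.74 to -7.94 and move to between -0.26 and 1.10 without watered tree 9 on 7 May.

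The comparisons that hold the dried 6 June libraries are given for size only, since those libraries chose the rows. Dried minus watered on 6 June had a median log2 fold change of 6.41 over the 142 rows, with a lowest value of 0.98 and a highest of 13.84. By edgeR 1 row was called higher (0.0206% of all rows) and by DESeq2 80 (4.74%). Without watered tree 9 on 7 May, a library that is not itself in this contrast but enters the shared estimate of the spread, edgeR called 125 (4.02%), and with the 6 libraries of 6 June alone it called 94 (3.09%). From 7 May to 6 June the dried trees had a median of 4.05 with 5 rows called higher by edgeR (0.21%), 50 by DESeq2 (4.82%) and 0 by edgeR with the tree as a block (0 of all 29107 rows tested). From 23 May to 6 June the median was 5.02 with 0 called by edgeR (0.0%); 115 were higher before adjustment (p under 0.05; 5.32% of all rows), and DESeq2 called 22 (0.539%). From 6 June to 29 July the median was -7.89, and 122 rows were called lower by edgeR (5.58%) and 101 by DESeq2 (10.8%). By edgeR the number was 81 with the tree as a block (3.28%). It was 0 when tree 4, tree 8 or tree 12 was left out, and in these fits 0 of all rows tested were called in either direction.

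The 150 rows were also compared with each other over the 21 libraries that were outside dried 6 June. The median Pearson r over all pairs of rows was 0.70, and 91.6% of pairs were above 0. Without watered tree 9 on 7 May the median was 0.33 over 20 libraries, and without dried tree 12 on 7 May as well it was 0.15 over 19 libraries, with 65.7% of pairs above 0. Libraries differ in depth and scaling, which all pairs share. The common pattern outside dried 6 June was thus much weaker without these 2 libraries of the first day.

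Among the 86 named carbohydrate rows of the scaled table, 3 met the same thresholds as the 150 rows, and all 3 were invertases, of which the table holds 5. It was the authors who chose which genes carry names, and none is part of the 150. The highest correlations with the median profile of the 150 rows over the 24 libraries were those of invertase2 (r = 0.91), invertase1 (r = 0.90), invertase8 (r = 0.85), sucsynthase1 (r = 0.85) and bamylase11 (r = 0.84). Sucrose synthase cleaves sucrose in a reversible reaction, and beta-amylase releases maltose from starch. Without the 2 libraries of 7 May these values were 0.88, 0.84, 0.80, 0.81 and 0.76. Both sets of values include the dried-tree libraries on which the 150 rows were chosen. The 3 invertases met the thresholds in those same libraries, so a high r was built into their choice and is only a description. No r is given without those libraries, so a shared pattern outside them was not tested for the named rows. In all, 24 of the 86 named rows had an r above 0.

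Invertase1 had a level of 6.85 in dried tree 4, 10.77 in tree 8 and 5.85 in tree 12 on 6 June, and of 0.73, 0 and 3.70 in watered trees 3, 9 and 11. On 7 May it was at 12.54 in watered tree 9 and at 0.50 and 1.74 in trees 3 and 11, and at 5.87 in dried tree 12 and 0 in trees 4 and 8. On 23 May the highest level was 4.79, in watered tree 9. The gap to the second highest group was 5.11, so the row had the pattern of the 150 rows, including both 7 May libraries.

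Invertase2 was at 10.03, 12.11 and 9.53 in dried trees 4, 8 and 12 on 6 June and at 3.05, 4.03 and 3.70 in watered trees 3, 9 and 11. It was already at 7.56 and 8.67 in dried trees 4 and 8 on 23 May, with 3.78 in tree 12, and at 6.09, 5.76 and 4.63 in watered trees. On 7 May watered tree 9 stood at 13.13 and dried tree 12 at 10.03. Invertase8 was at 9.31, 10.99 and 8.61 in dried trees and at 3.80, 0 and 3.91 in watered trees on 6 June. On 23 May it was at 7.34, 8.69 and 5.18 in dried trees and at 6.24, 5.36 and 4.32 in watered trees, so the arms overlapped. On 7 May it was at 11.78 in watered tree 9 and 9.49 in dried tree 12. The gap was 2.47 for invertase2 and 1.97 for invertase8. For these 3 rows dried minus watered on 6 June was 7.59 ± 2.62, 7.48 ± 2.22 and 6.73 ± 1.90 (log2 fold change ± SE), with adjusted p-values of 0.0945, 0.0697 and 0.0656 by edgeR for invertase1, invertase2 and invertase8, so none was called.

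**Figure D5:**
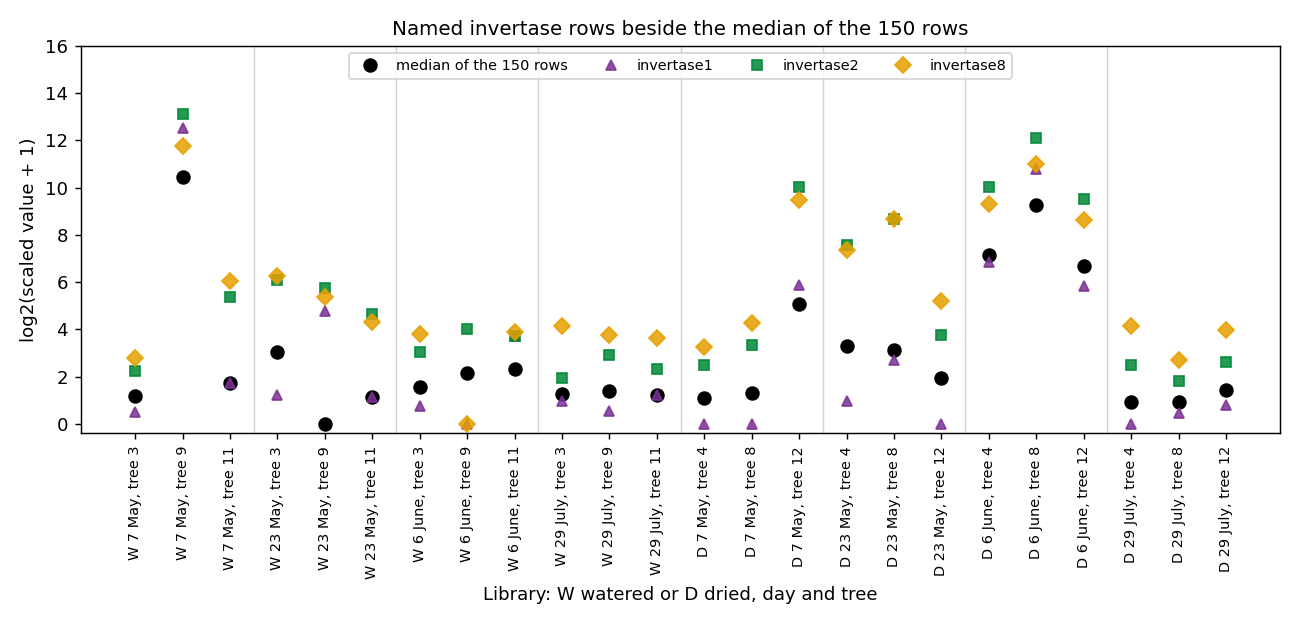
Level of invertase1, invertase2 and invertase8 and the median of the 150 rows (vertical axis, log2(scaled value + 1)) in each library (horizontal axis; W watered, D dried). All 4 series are high in the 3 dried trees of 6 June and highest in watered tree 9 on 7 May, and invertase2 and invertase8 are also above 7 in dried trees 4 and 8 on 23 May.

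At the other end, the lowest correlations with the profile were those of dpe2 (r = -0.86), sucsynthase10 (r = -0.86) and agp3 (r = -0.85). Dpe2 is the name of a disproportionating enzyme that acts on maltose from starch, and ADP-glucose pyrophosphorylase, which the name agp stands for, makes the glucose donor of starch synthesis. In dried trees on 6 June the group median was 0 for agp3, against 6.99 in its highest group, and 5.37 for sucsynthase10, against 9.78. These rows were thus low where the 150 rows were high. The 5 invertase rows, of which 3 met the thresholds, had a median r of 0.85, and the next family, alpha-amylases, had a median of 0.26 over 5 rows. The 0.85 is the r of invertase8, one of the 3, so its height was built in. Invertase11 and invertase9 did not meet the thresholds and had r of 0.63 and 0.56. Without the 2 libraries of 7 May these were 0.60 and 0.27, and the dried 6 June median of invertase9 was 0.

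The authors' deposited table gives fold changes for 3 comparisons, named with the words ctrl, drought and after and without a day. Their match to 23 May, 6 June and 29 July was inferred here from the numbers in their names and from correlations across rows. The fold changes of the authors' deposited table, turned here to the dried side, correlated across rows more closely with the difference between arms after subtracting that of 7 May (r = 0.92, 0.97 and 0.83 for 23 May, 6 June and 29 July) than with the plain difference of those days (0.86, 0.95 and 0.36). For the third comparison the plain difference gave a higher r on 6 June (0.55) than on 29 July (0.36), and -0.76 on 7 May. After subtracting 7 May, r was 0.67 for 6 June and 0.83 for 29 July. By correlation, its match to 29 July thus depends on that subtraction. In the authors' deposited table the first comparison lists 70 of the 150 rows, 68 of them positive, with a median log2 fold change of 4.95 and 7 called higher (1.22% of its rows). The second comparison in the authors' deposited table lists 146 rows, all positive, with a median of 9.12 and 104 called higher (5.4%). For the third, the authors' deposited table lists all 150 rows, 122 positive and 17 negative, with a median of 2.56 and 3 called higher (0.0157%).

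For comparison, the plain difference between arms had medians of 0.51, 5.52 and -0.03 over the 150 rows on 23 May, 6 June and 29 July on the log2(scaled value + 1) scale. With the difference of 7 May subtracted the medians were 2.59, 7.11 and 1.74, and without watered tree 9 on 7 May they were -0.23, 4.56 and -0.83. With the first day subtracted, the medians of 23 May and 29 July were thus positive with that library and negative without it. For Oeu018773.1, which had no read in that library, the authors' deposited table gives 8.89 for the second comparison with an adjusted p of 0.244. For Oeu013871.1 the authors' deposited table gives 15.65 with an adjusted p of 9.06e-05.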

How the data were processed

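RNA of 24 branch libraries was sequenced after poly-A selection. The tools in the submitters' processing notes are Bowtie2, RSEM, cutadapt, limma and DESeq2; no version and no build is named there. The authors deposited RSEM expected counts for 50663 rows, which were rounded here. The authors also deposited signal values for 31870 rows, which equal the rounded count times 1 constant per library (100% of values whole within 0.01 reads). Fold changes in the authors' deposited table are log2 values with adjusted p-values.

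The quasi-likelihood test of edgeR 4.0.16 (R 4.3.3) was run on TMM-scaled counts after filterByExpr, with a mean for each of the 8 groups. A row was called when its p, adjusted over 29107 rows by Benjamini-Hochberg, was under 0.05. Standard errors were derived as the size of the log2 fold change divided by the root of its F statistic. Levels are log2(scaled value + 1). The procedure was tested on simulated counts. The members, lists and tests were chosen with earlier results of these data known. IDs were named by rule: the largest gaps, the highest single library outside dried 6 June, and up to 2 non-overlapping rows per direction and contrast; of named rows, those meeting the thresholds and the 5 highest and 3 lowest r. The 3 invertases that met the thresholds are also among the 5.

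Alternatives were DESeq2 1.42.0, its size factors, no filter beyond 1 count, limma 3.58.1 on scaled values, 1 day alone, each tree left out, other thresholds and scalings, and the tree as a block. The same trees were sampled on each day, so tree numbers pair days; deviations of 1 tree's libraries correlated at -0.06 to 0.18 on average. Fits without libraries of 7 May were added after the data were seen.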

Additional observations from a re-analysis of the deposited data

Results flagged for a closer look

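In Oeu031160.1 every dried tree was higher on 6 June than on 7 May, by 6.26 log2 units on average, and every watered tree was lower, by 4.16 on average, a difference of 10.43 between the arms that was not tested. The watered trees had 1, 767 and 1 reads on 7 May and none on 6 June, so for trees 3 and 11 the lower value rests on 1 read each.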

How the results depend on the processing

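Depth limits the lowest levels: of the 150 rows 79 had no read in watered tree 9 and 68 in dried tree 8 on 23 May, where 1 read was worth 3.34 and 5.41 scaled units. The number of rows meeting the thresholds was 393 and became 742 with a gap of at least 1, 236 with a gap of at least 2, 169 with scaling by total count and 9 when the highest tree replaced the median of the other groups; leaving out a tree gave 152 to 657. With total-count scaling, all 3 dried trees of 6 June lay above all other libraries in 2 rows, and in 14 without watered tree 9 on 7 May. DESeq2 called, in either direction, 14, 2, 80 and 7 rows for dried minus watered on 7 May, 23 May, 6 June and 29 July, 5 and 50 for dried trees from 7 May to 23 May and to 6 June, 22 from 23 May to 6 June and 6 from 7 May to 29 July, 60, 50 and 77 for watered trees on later days against 7 May, and 11 for the interaction. For DESeq2 the shares of all rows are given with each comparison above. Comparisons that hold dried 6 June are given for size only, since those libraries chose the rows. On 6 June between arms 40 were called higher without filter (183 of 48834 rows tested), 44 by limma (318 of 31870) and 94 with that day alone (3.09%). For dried 6 June minus 7 May these were 20 without filter (136 of 48834) and 30 by limma (243 of 31870). For 6 June minus 23 May limma called 2 (5 of 31870). For watered 23 May 1 row was called lower without filter (5 of 48834). With the tree as a replicate block, dried 6 June minus 7 May had 0 calls (0 of all 29107 rows tested) and 29 July minus 6 June had 81 (3.28%). It changed no other call, and contrasts between arms could not be fitted with it. Without both 7 May libraries, 124, 129, 61 and 12 rows were called for dried minus watered on 6 June and for dried 6 June minus 7 May, 6 June minus 23 May and 23 May minus 7 May. The shares of all rows called higher there were 4.54%, 4.34%, 0.471% and 1.55%. Leaving out a single tree or library, or both 7 May libraries, gave 0 to 125 calls between arms on 6 June, 0 to 129 for dried 6 June minus 7 May, 0 to 61 for 6 June minus 23 May, 0 to 12 for 23 May minus 7 May, 0 to 143 for 29 July minus 6 June and 0 to 10 for the interaction, and 0 to 0 elsewhere. At the 125 the share of all rows was 4.02%, at the 10 it was 1.65%, and at the 143 it was 2819 of 29958 rows tested. With single removals alone the highest counts for dried 6 June minus 7 May, 6 June minus 23 May and 23 May minus 7 May were 78, 24 and 3, each without watered tree 9 on 7 May. The shares there were 3.13% and 0.21% higher for the first 2, and 0.866% higher and 3.95% lower for the last. The cause of these differences was not tested.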
